A study of Rattus norvegicus with 6 samples.

Results

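The genes through which acetylcholine released by vestibular efferents acts on the sensory epithelium were followed in RNA-seq libraries of the rat vestibular epithelium. They were chosen by name: the nicotinic receptor subunit genes Chrna9, Chrna10, Chrna1 and Chrnb1, the muscarinic receptor genes Chrm2 and Chrm3, and Ache, which encodes acetylcholinesterase. All 7 were found among the 32883 genes of the table. The animals were male Long-Evans rats, received at 8 to 9 weeks of age. In the IDPN-4wk group, 3 rats were given 3,3'-iminodipropionitrile (IDPN) at 20 mM in their drinking water over 4 weeks, and 3 control rats were not exposed to it. IDPN damages vestibular hair cells (HCs). Each library came from 1 rat, whose 2 utricles and 6 cristae were combined.

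Efferent neurons have their cell bodies in the brainstem, outside the dissected tissue, and end on type II HCs and on the afferent calyces around type I HCs. In HCs, acetylcholine opens a calcium-permeable receptor built from the alpha9 and alpha10 subunits, and the calcium that enters opens potassium channels, which inhibits the cell. On afferent endings, muscarinic receptors act through G proteins and close potassium channels of the KCNQ family. Those endings belong to neurons of the vestibular ganglion, which was not among the tissues combined. Which cells held the transcripts of Chrm2, Chrm3 and the muscarinic effectors was not tested. Acetylcholinesterase ends the signal by cleaving the transmitter.

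The start regions of 3 nicotinic genes are shown because the nicotinic subunits carry the main comparison. Each window runs from 250 bases before to 50 bases after a transcript start in the RefSeq annotation of GRCr8, a later build than that of the counts, and is written 5′ to 3′ on the gene's strand. All 7 genes had a window. That of Chrna10 lay inside the annotated span of the gene, so it is not its upstream region and is not shown. Capitals mark the E-box CANNTG, the core motif of basic helix-loop-helix factors such as ATOH1 of HCs and MyoD of muscle. The windows are chr14:42595620-42595919 for Chrna9, chr3:78877304-78877603 for Chrna1 and chr10:55015058-55015357 for Chrnb1, all on the minus strand.
Chrna9: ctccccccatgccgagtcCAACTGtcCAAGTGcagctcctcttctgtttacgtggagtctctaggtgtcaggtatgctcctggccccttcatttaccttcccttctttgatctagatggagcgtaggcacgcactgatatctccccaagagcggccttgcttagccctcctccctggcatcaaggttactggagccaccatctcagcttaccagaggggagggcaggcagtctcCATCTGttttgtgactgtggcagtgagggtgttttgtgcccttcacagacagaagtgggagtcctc
Chrna1: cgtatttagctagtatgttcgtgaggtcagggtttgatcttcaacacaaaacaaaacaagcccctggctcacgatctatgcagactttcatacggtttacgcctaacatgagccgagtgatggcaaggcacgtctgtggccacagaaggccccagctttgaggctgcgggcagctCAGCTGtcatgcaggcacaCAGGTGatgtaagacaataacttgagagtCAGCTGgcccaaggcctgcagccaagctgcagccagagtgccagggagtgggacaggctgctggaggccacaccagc
Chrnb1: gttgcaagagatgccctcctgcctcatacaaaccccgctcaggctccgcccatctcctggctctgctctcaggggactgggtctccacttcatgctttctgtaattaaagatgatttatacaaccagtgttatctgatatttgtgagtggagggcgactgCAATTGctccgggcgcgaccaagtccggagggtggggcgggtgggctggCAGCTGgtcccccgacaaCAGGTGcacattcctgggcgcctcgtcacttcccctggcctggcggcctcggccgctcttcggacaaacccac
Chrna9, Chrna1 and Chrnb1 each held 3 E-boxes. Of the 33469 windows of this length in the annotation, 72.1% held at least 1, and the median was 1. The share with 3 or more was not computed. The E-box covers both strands, since its fixed letters read the same on either. The form CAGCTG, a subset of the E-boxes, occurred 2 times for Chrna1 and 1 time for Chrnb1, and in 15.1% of all windows. The GC box GGGCGG, searched on both strands and present in 33.1% of all windows, occurred 2 times for Chrnb1 and 0 times for Chrna9 and Chrna1. A match describes the window and does not show that a factor binds there.

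The libraries held from 13358678 to 18561991 counts. Levels are given as CPM, counts scaled by the TMM-normalised library size, which are not corrected for transcript length and are therefore compared between rats for the same gene and never between genes. In total, 14352 genes passed the filter on low counts and were tested with edgeR. A gene was called when its adjusted p-value (Padj) was below 0.05 with a change of more than 1.5-fold, and 1394 genes (9.71%) were. General HC markers were present in every library, at a summed level of 3192 to 3460 CPM in control rats and of 1537 to 2074 CPM in exposed rats. In bulk tissue, fewer cells of a type and less RNA per cell cannot be told apart.

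Among the 7 genes, 5 passed the filter and 0 were called, against 9.71% of all genes tested. DESeq2 also called 0. At an unadjusted p under 0.05 the number was 1 with either tool, against 33.1% of all genes with edgeR. This number was not stable. In edgeR fits that left out 1 library it was 0 to 3 of 5, with 3 reached without IDPN-4wk replicate 3. The median log2-Fold change of the 5 tested genes was -0.09, beside 0.02 over all genes tested. Mean levels of Chrna9 and Chrna10 in exposed rats were 93.9% and 97.4% of control, Chrnb1 was at 76.1% without passing the test, and both muscarinic genes had few counts. The sign of the estimates for Chrna9 and Chrna10 changed when libraries were scaled by their totals alone.

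Chrna9 (ENSRNOG00000002484) encodes the alpha9 subunit, which is needed for the efferent response of HCs. Its level was 55.9, 67.8 and 52.5 CPM in the control rats and 51.6, 43.9 and 69.9 CPM in the IDPN-4wk rats. The groups overlapped, and the highest value of all belonged to an exposed rat. Group means were 58.7 ± 8.03 and 55.1 ± 13.4 CPM (mean ± SD of 3 rats). The log2-Fold change was -0.0925 with a standard error (SE) of 0.16 and a Padj of 0.722 by edgeR. Its 95% interval ran from -0.44 to 0.25, which puts the exposed level between 73.7% and 119% of control.

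Chrna10 (ENSRNOG00000020293) encodes the alpha10 subunit, which joins alpha9 in the receptor and raises its currents. Its level was 259, 308 and 258 CPM in the control rats and 233, 229.7 and 342 CPM in the exposed rats. As for Chrna9, the groups overlapped, control replicate 2 was the highest control and IDPN-4wk replicate 3 the highest of all. Group means were 275 ± 28.5 and 268 ± 64.0 CPM (mean ± SD of 3 rats). The log2-Fold change was -0.0378 with an SE of 0.14, and edgeR gave a Padj of 0.883. The 95% interval ran from -0.35 to 0.28, that is 78.3% to 121% of control, and neither this interval nor that of Chrna9 reached a change of 1.5-fold. Without IDPN-4wk replicate 3, the estimates were -0.31 for Chrna9 and -0.26 for Chrna10, and the Padj of either gene by edgeR was at least 0.0692 in every fit that left out 1 library.

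**Figure D1:**
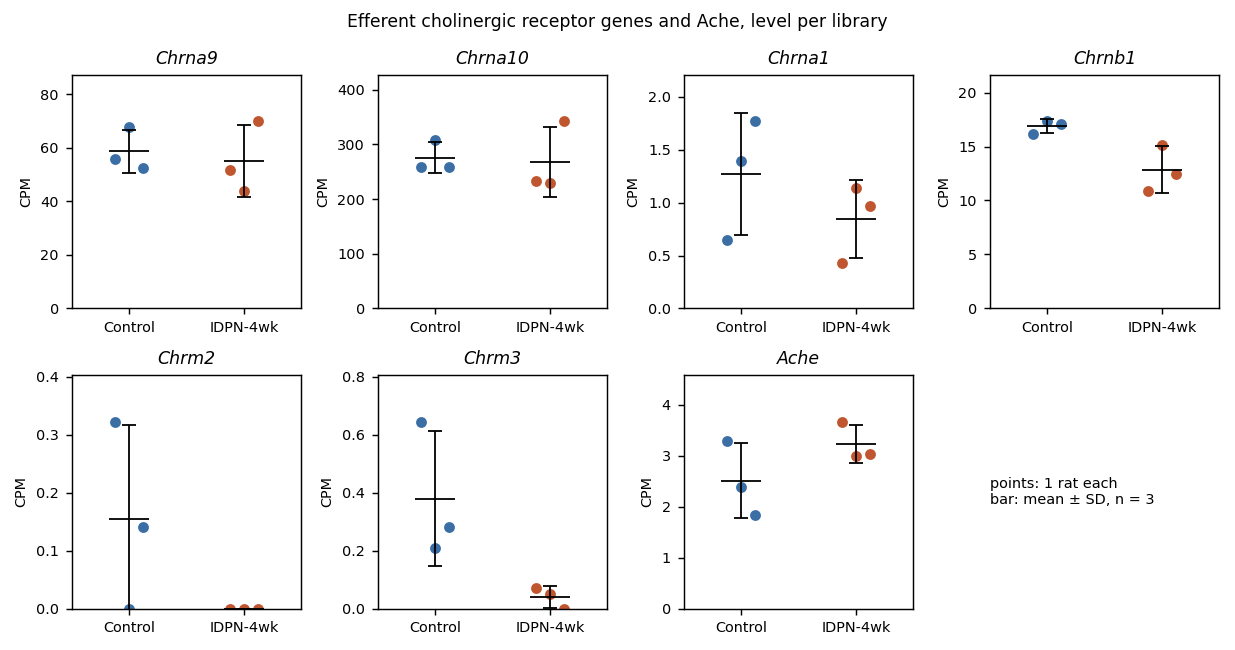
Level of each of the 7 genes in the 6 libraries. The vertical axis of each panel is CPM from 0, each point is 1 rat, and the horizontal bar with whiskers is the mean ± SD (n = 3). IDPN-4wk values overlap the control values for Chrna9 and Chrna10 and lie below them for Chrnb1, at 10.9 to 15.2 against 16.1 to 17.3 CPM.

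The proportion of the subunit transcripts was compared within libraries. The log2 ratio of Chrna10 to Chrna9 was 2.22, 2.18 and 2.30 in control and 2.17, 2.39 and 2.29 in IDPN-4wk libraries, and the groups overlapped. The means were 2.23 ± 0.0585 and 2.28 ± 0.108 (mean ± SD of 3 rats). Their difference of 0.0511 gave p = 0.70 in an exact two-sided permutation test, which can reach no less than 0.10 with 3 rats per group. Over the 6 libraries, log2 CPM of the subunit genes had a Pearson r of 0.948 and a Spearman rho of 1, a description of points that share their scaling.

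Tested genes were ranked by correlation, leaving out those without an ordinary symbol, such as genes named by clone or locus number. Those most like Chrna9 in log2 CPM over the 6 libraries were Pik3r5 (Pearson r 0.996), Heatr5a (0.988) and Daam1 (0.982). For Chrna10 they were Fuk (0.987), Heatr5a (0.980) and Daam1 (0.975). Heatr5a and Daam1 were thus found for both subunits, and none of these 4 genes was called. The genes were picked as the highest of many correlations over 6 libraries. Shared genes follow from the likeness of Chrna9 and Chrna10 themselves, so this is a description only.

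General HC markers were lower in the same libraries. Of 15 markers, all tested, 10 were downregulated and 0 upregulated, where 6.62% and 3.09% of all genes were, and the median log2-Fold change was -1.03. Single genes are given below by their log2-Fold change where only a Padj follows. Myo7a, a myosin of all HCs, was at -0.64 (Padj 0.00109 by edgeR). Otof, the calcium sensor of the ribbon synapse, was at -1.19 (Padj 1.65e-04), and Slc17a8, the transporter that loads glutamate into HC vesicles, was at -2.56 (Padj 8.48e-06). The estimates of 14 of the 15 markers lay below the lower end of the interval of Chrna9, and those of 14 below that of Chrna10, where 13.4% and 16.8% of all genes tested did. The exception for both was the transcription factor gene Gfi1, at -0.0743 (Padj 0.759 by edgeR).

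The same comparison was made inside each library, as log2 CPM of the subunit gene minus the mean log2 CPM of the 15 markers. For Chrna9 this log2 ratio was -1.07, -0.95 and -1.19 in control and -0.00665, -0.30 and -0.0672 in IDPN-4wk libraries. For Chrna10 it was 1.14, 1.23 and 1.10 in control and 2.16, 2.09 and 2.22 in IDPN-4wk libraries. For both genes every exposed rat lay above every control rat. The ratio was higher by 0.95 for Chrna9 and by 1.00 for Chrna10 on average, that is 1.93-fold and 2.00-fold. Against Myo7a alone the differences were 0.53 and 0.58. The markers were chosen with their decrease in these libraries known, which largely fixes the separation and the count of 14 of 15 markers, so these values are a description and no test is given.

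**Figure D2:**
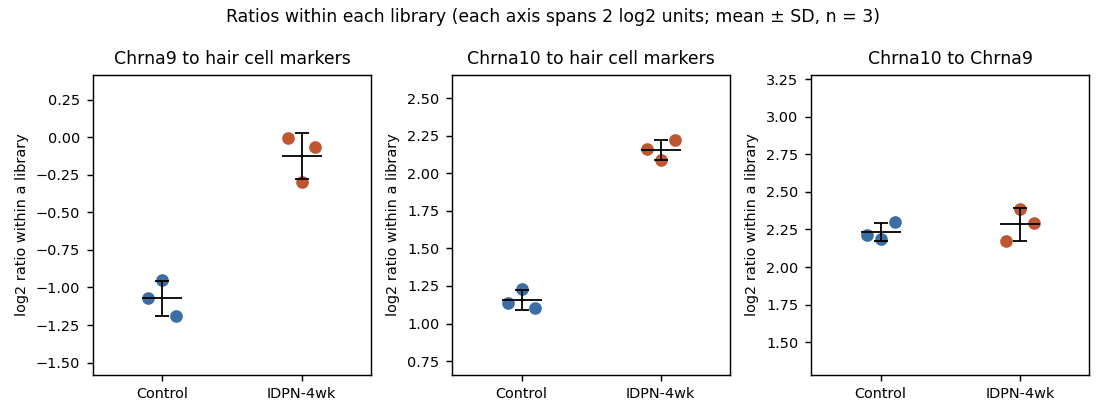
Log2 ratios within each library: Chrna9 to the mean of 15 HC markers, Chrna10 to the same mean, and Chrna10 to Chrna9. The vertical axis is the log2 ratio, points are rats, and bars with whiskers are the mean ± SD (n = 3). The groups are apart by 0.95 and 1.00 on average for the ratios to HC markers and overlap for Chrna10 to Chrna9, where they differ by 0.0511.

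**Figure D3:**
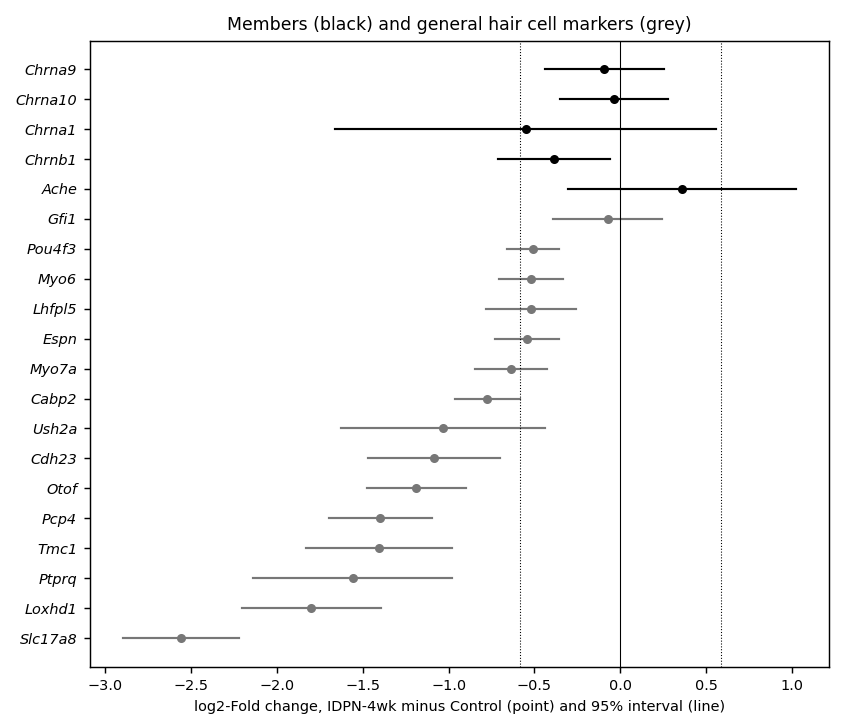
Log2-Fold change of IDPN-4wk against control (horizontal axis, points) with its 95% interval (lines) for the 5 members tested and 15 general HC markers. Chrna9 (-0.09) and Chrna10 (-0.04) lie to the right of all HC markers except Gfi1 (-0.07), which lies between them.

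Markers of the HC types were read beside these genes, since efferents contact type II HCs directly. All 6 type I HC markers tested were downregulated, with a median log2-Fold change of -2.23, among them Spp1, which encodes osteopontin (-1.83, Padj 3.66e-05 by edgeR). These markers are among the genes that the study picked as downregulated in data that include these libraries, so their direction was fixed by the choice. Of 6 type II HC markers tested, 2 were downregulated, Calb2 (-2.16) and Nrxn3 (-3.63), and the median was -0.20. Mapt (-0.0663), Anxa4 (-0.0803), Nhlh1 (-0.13) and Sox2 (-0.27), the last also made by supporting cells, were not called. The part of HC type in the levels of Chrna9 and Chrna10 was not tested.

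Chrna1 and Chrnb1 encode the alpha1 and beta1 subunits, best known from the receptor of the neuromuscular junction. Chrnb1 (ENSRNOG00000014698) was at 16.1, 17.3 and 17.1 CPM in the control rats and at 10.9, 15.2 and 12.5 CPM in the exposed rats. All exposed rats were below all control rats, a separation in this direction that 19.3% of all genes tested had, and 37.8% had in either direction. Group means were 16.9 ± 0.636 and 12.8 ± 2.18 CPM (mean ± SD of 3 rats). The log2-Fold change of -0.39, with an SE of 0.15 and a 95% interval from -0.72 to -0.0614, had a Padj of 0.0923 by edgeR. Without IDPN-4wk replicate 2, the exposed rat nearest to the controls, it was -0.53 with a Padj of 0.0481 by edgeR, still short of 1.5-fold. Chrnb1 and Zbtb4 overlap at their ends in GRCr8, and since the protocol keeps no strand, reads there cannot be told apart. Zbtb4 was at 0.14 (Padj 0.249 by edgeR). In the same way Chrna10 overlaps Art1, which had 9 to 22 counts per library.

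Chrna1 (ENSRNOG00000018286) was rare, with 10, 20 and 25 counts in control and 6, 22 and 15 counts in IDPN-4wk libraries. This equals 0.646, 1.40 and 1.77 CPM and 0.431, 1.13 and 0.966 CPM, and the groups overlapped. The log2-Fold change of -0.55, with an SE of 0.50, had a Padj of 0.485 by edgeR. At this depth its interval ran from 31.7% to 147% of control. Of 16 skeletal muscle markers, 12 were in the table, and Ckm, Tnni2 and Myl1, which define contractile fibres, were at 0 in all libraries. Their summed level was 18.4 to 26.3 CPM in control and 49.6 to 85.3 CPM in IDPN-4wk libraries. Of 3 tested, 1 was upregulated, the fast myosin heavy chain gene Myh4 (2.87, Padj 3.66e-05 by edgeR). Without Myh4 the sum was 11.7 to 15.7 CPM in control and 9.06 to 13.5 CPM in IDPN-4wk libraries, and the others tested, Tnnc2 (-0.37) and Neb (-1.13), were not called. Chrnd, the delta subunit of the muscle receptor, was at 0 counts in all libraries, and Chrne, its epsilon subunit, was not called (0.59, Padj 0.435 by edgeR). The part of muscle transcripts in the levels of Chrna1 and Chrnb1 was not tested.

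Chrm2 encodes a muscarinic receptor coupled to Gi, and Chrm3 one coupled to Gq. Chrm2 (ENSRNOG00000046972) had 5, 0 and 2 counts in control libraries and 0 in each IDPN-4wk library. Chrm3 (ENSRNOG00000049410) had 10, 3 and 4 counts in control and 1, 1 and 0 counts in IDPN-4wk libraries. All exposed rats were below all control rats for Chrm3, and the groups overlapped at 0 for Chrm2. The share with such a separation given for Chrnb1 covers tested genes alone, and none was computed for genes this rare. With no count in a library, a level below 3 counts remains possible, equal to 0.155 to 0.216 CPM. Both genes were removed by the filter on low counts. For Chrm3, the 2 counts pooled over exposed rats against 17 over controls gave a depth-corrected ratio of 0.106, with a 95% interval from 0.0119 to 0.446 that covers counting error and leaves out the spread between rats. In a fit without the filter, edgeR gave a Padj of 0.175 for Chrm2 and of 0.0984 for Chrm3. Markers of smooth muscle and pericytes, cells that also carry these receptors, summed to 183 to 235 CPM in control and 187 to 216 CPM in IDPN-4wk libraries, and to 63.7 to 90.5 CPM and 62.6 to 79.9 CPM without Pdgfrb, which held most of the sum. Within this list Myh11, the smooth muscle myosin gene, was downregulated (-0.79, Padj 0.0273 by edgeR) and Des upregulated (0.69, Padj 0.0425). Tagln was lower in every exposed rat without being called (-0.52, Padj 0.0737 by edgeR). The part of these cells in the counts of Chrm2 and Chrm3 was not tested.

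Ache (ENSRNOG00000050841) was at 3.29, 2.38 and 1.84 CPM in the control rats and at 3.67, 2.99 and 3.03 CPM in the exposed rats, and the groups overlapped. Group means were 2.503 ± 0.735 and 3.23 ± 0.380 CPM (mean ± SD of 3 rats). The log2-Fold change was 0.36 with an SE of 0.30 and a Padj of 0.446 by edgeR, and its 95% interval ran from 81.0% to 203% of control. The estimate was 0.61 without control replicate 1 and 0.18 without control replicate 3, and its Padj by edgeR was at least 0.263 in every fit that left out 1 library. Ufsp1, which overlaps Ache in GRCr8, was at 0.30 (Padj 0.534 by edgeR). Red blood cells also carry acetylcholinesterase, and 2 of 5 rows of their marker genes tested were upregulated, beside 3.09% of all genes. These markers summed to 264 to 315 CPM in control and 306 to 626 CPM in IDPN-4wk libraries, and their part in the level of Ache was not tested. By the ranking used for Chrna9 and Chrna10, the genes most like Ache were Gucd1 (Pearson r 0.998), Tbc1d24 (0.991) and Vps35 (0.982). None of them was called, and they too were picked as the highest of many correlations over 6 libraries.

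Other receptor genes were read beside the members. Of 12 further nicotinic subunit genes, 11 were in the table and 4 were tested. Of these, edgeR called 0, where 9.71% of all genes were called. At an unadjusted p under 0.05 the number was also 0, against 33.1% of all genes. Chrnb2, a neuronal beta subunit, averaged 15.9 ± 3.24 CPM in control rats and 11.4 ± 3.84 CPM in exposed rats (mean ± SD of 3 rats), a log2-Fold change of -0.48 (Padj 0.176 by edgeR). Chrna2 was at -0.65 (Padj 0.283 by edgeR). Of the other 3 muscarinic genes, Chrm5 was tested (-0.0169, Padj 0.985 by edgeR), and Chrm1 and Chrm4 reached at most 10 and 11 counts in a library.

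Genes that make, load and take up acetylcholine came next. Chat (choline acetyltransferase), Slc18a3 (the vesicular acetylcholine transporter) and Slc5a7 (the choline transporter of nerve endings) had 0 counts in all 6 libraries. The general choline transporter genes Slc44a1 (0.11, Padj 0.536 by edgeR) and Slc44a2 (0.0665, Padj 0.543) were not called. Bche encodes butyrylcholinesterase, the other enzyme that cleaves acetylcholine, and was the 1 gene called of 4 tested, where 9.71% of all genes were. It fell from 18.0, 17.3 and 13.2 CPM in control to 7.12, 5.36 and 8.05 CPM in exposed rats, with no overlap. Its log2-Fold change was -1.25 with an SE of 0.19 (Padj 0.00135 by edgeR). Glia also make Bche, and 2 of 8 Schwann cell markers were downregulated, beside 6.62% of all genes, with a median of -0.55. Their part in the decrease of Bche was not tested.

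Of 8 genes that assemble or modulate nicotinic receptors, 7 were tested, 1 was downregulated and 1 upregulated, beside 6.62% and 3.09% of all genes. Ric3, a chaperone of receptor assembly, fell from 16.1, 17.3 and 15.2 CPM to 7.91, 7.79 and 9.27 CPM, to 51.4% of control (log2-Fold change -0.96, SE 0.15; Padj 0.00122 by edgeR). Ly6e, a small surface protein gene that is also induced by interferon, rose from 30.9, 24.2 and 24.3 CPM to 43.8, 44.2 and 36.8 CPM, a log2-Fold change of 0.65 with an SE of 0.13 (Padj 0.00491 by edgeR). Neither gene had overlapping groups, which also held for 37.8% of all genes tested. Among the 5 not called, Lypd1 was at -0.18 (Padj 0.172 by edgeR) and Tmem35a, which encodes the chaperone NACHO, at -0.20 (Padj 0.572).

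Of 4 tested genes that cluster receptors at synapses, edgeR called 0, and 2 had an unadjusted p under 0.05, as did 33.1% of all genes tested. Rapsn, which encodes the scaffold rapsyn, averaged 24.0 ± 1.56 CPM in control rats and 16.6 ± 4.06 CPM in exposed rats (mean ± SD of 3 rats), a log2-Fold change of -0.54 (Padj 0.0514 by edgeR). Lrp4, a receptor for agrin, was at -0.34 (Padj 0.0451 by edgeR), short of 1.5-fold. Agrn was at -0.0371 (Padj 0.834 by edgeR).

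Calcium-gated potassium channels and calcium stores lie downstream of the alpha9 alpha10 receptor. Of 13 genes tested, 4 were downregulated and 0 upregulated, where 6.62% and 3.09% of all genes were, and the median log2-Fold change was -0.19. Kcnma1, the pore subunit of the BK channel, fell from 5.68, 7.62 and 6.87 CPM to 0.575, 0.309 and 0.579 CPM, to 7.26% of control. Its log2-Fold change of -3.79, with an SE of 0.33, had a Padj of 4.75e-05 by edgeR, from 88 to 109 counts in control and 6 to 9 in IDPN-4wk libraries. Kcnn2, the SK2 channel that is the classical partner of the receptor, was rare, with 14, 14 and 11 counts in control and 7, 9 and 6 counts in IDPN-4wk libraries. The groups did not overlap, and the log2-Fold change of -0.96, with an SE of 0.45, did not pass the test (Padj 0.162 by edgeR).

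Ryanodine receptors release calcium from stores beneath efferent synapses. Ryr3 fell from 131, 140.2 and 148 CPM in control to 44.9, 52.0 and 70.0 CPM in exposed rats, a log2-Fold change of -1.33 with an SE of 0.14 (Padj 1.19e-04 by edgeR). Ryr2, at a mean of under 50 counts, had 54, 70 and 63 counts in control and 1, 15 and 14 counts in IDPN-4wk libraries, a log2-Fold change of -2.81 with an SE of 0.51 (Padj 0.00332 by edgeR). In both genes every exposed rat was below every control rat, as in 19.3% of all genes tested. Atp2a3, the SERCA3 pump that refills stores, fell from 268, 246 and 249.6 CPM to 109, 93.9 and 151 CPM (log2-Fold change -1.11, SE 0.14; Padj 4.36e-04 by edgeR). The IP3 receptor genes Itpr1, Itpr2 and Itpr3 and the pump gene Atp2a2 were not called, with log2-Fold changes of -0.17, -0.19, -0.0690 and -0.10.

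Of 13 muscarinic effector genes tested, 3 were downregulated and 0 upregulated, beside 6.62% and 3.09% of all genes, and the median log2-Fold change was 0.00305. Plcb1, a phospholipase C activated by Gq, fell from 11.8, 13.1 and 11.1 CPM to 2.66, 3.30 and 2.77 CPM (log2-Fold change -2.03, SE 0.19; Padj 7.72e-05 by edgeR). Kcnq5, a KCNQ channel gene also at a mean of under 50 counts, fell from 50, 27 and 66 counts to 9, 6 and 10 counts, a log2-Fold change of -2.63 with an SE of 0.47 (Padj 0.00310 by edgeR). Gnao1, a G protein alpha subunit of the Gi family, fell from 13.4, 12.8 and 12.8 CPM to 6.11, 7.48 and 8.95 CPM (log2-Fold change -0.79, SE 0.17; Padj 0.00980 by edgeR). None of the 3 had overlapping groups, which also held for 37.8% of all genes tested. The alpha subunit genes Gnai3 (0.0385), Gnaq (-0.20) and Gna11 (0.0776) were not called. Plcb4, another phospholipase C, was at -0.30 (Padj 0.0288 by edgeR), short of 1.5-fold. Gnai1, of the Gi family, was higher in every exposed rat than in any control without being called (0.26, Padj 0.0619 by edgeR).

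Efferent endings also release peptides. The efferent cell bodies lay outside the dissected tissue, and which cells held the peptide transcripts was not tested. Of 9 genes of these peptides and their receptors, 3 were tested. Of these, 1 was downregulated and 0 upregulated, beside 6.62% and 3.09% of all genes. Penk, the enkephalin precursor, fell from 20.8, 28.3 and 25.1 CPM to 13.5, 15.8 and 13.8 CPM (log2-Fold change -0.78, SE 0.14; Padj 0.00351 by edgeR). Ramp1, a subunit of the receptor for calcitonin gene-related peptide, was at -0.41 (Padj 0.00438 by edgeR), short of 1.5-fold, and its partner Calcrl was not called (-0.19, Padj 0.571).

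Over these 8 lists, 76 of 77 genes were in the table and 49 were tested. Of these 10 (20.4%) were downregulated, against 6.62% of all genes tested, and 1 was upregulated, and their median log2-Fold change was -0.19. The shares describe the lists and test nothing. Neuron markers summed to 81.4 to 84.3 CPM in control and 55.7 to 61.7 CPM in IDPN-4wk libraries, with 1 of 7 tested downregulated and 2 upregulated. Nefl (-0.43) and Nefm (-0.52), which held most of this sum, were not called. Gap43 (-4.43) was downregulated, and Nefh (2.05) and Prph (2.57) were upregulated. Elavl4 (0.79) was higher in every exposed rat without being called. Of 12 supporting cell markers, 3 were downregulated and 0 upregulated, with a median of -0.33, and Otog (-0.97) and Gjb6 (-0.86) were among the former. Sox9 (0.24), Hes1 (0.36) and Sox10 (0.19) had estimates above 0 and were not called. Of 8 markers of dark cells and melanocytes, 3 were downregulated, among them Kcnq1 (-1.87), and the median was -0.63. The part of HC, neuron, glial, supporting cell and dark cell markers in these decreases was not tested.

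**Figure D4:**
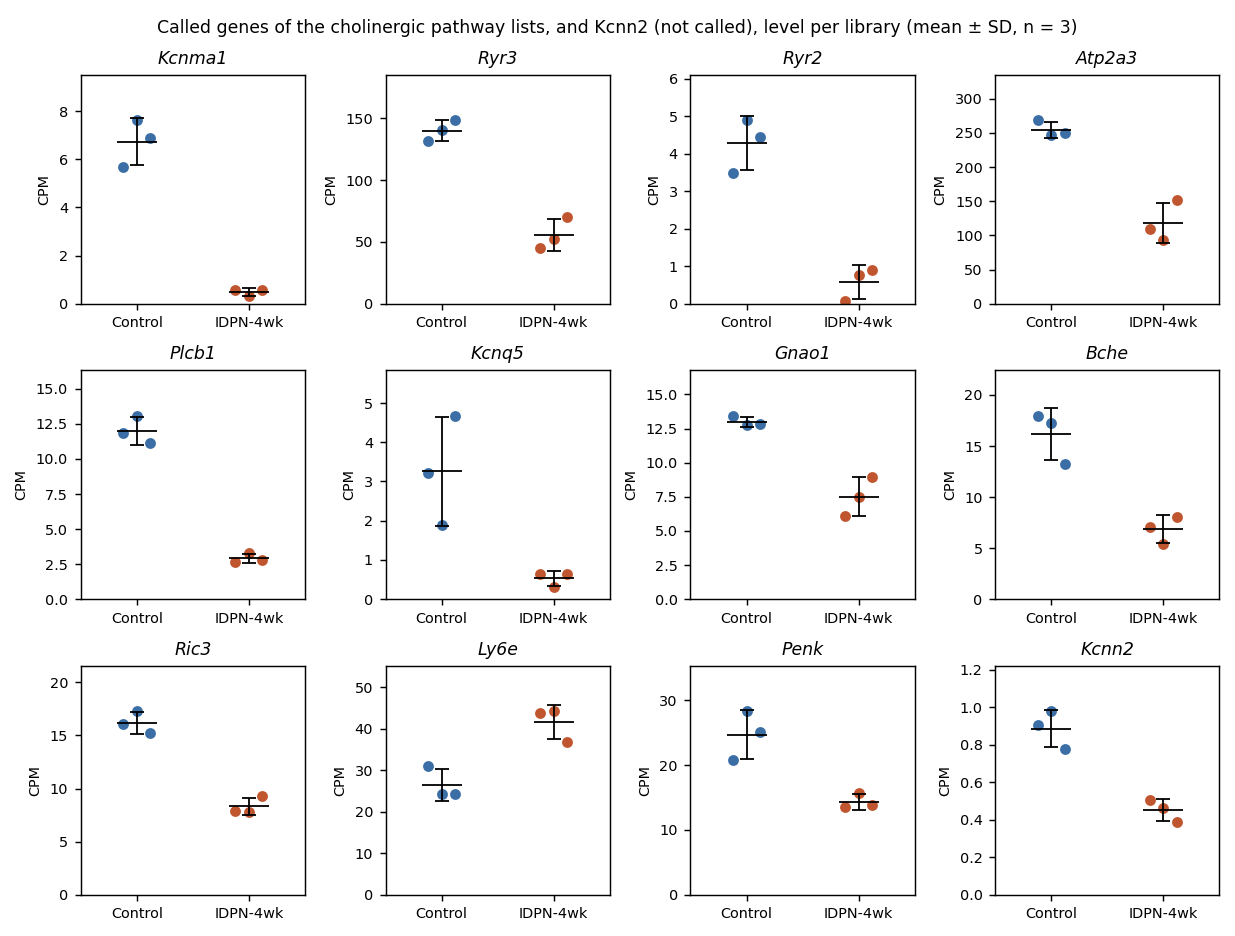
Level of the 11 called genes of the cholinergic pathway lists, and of Kcnn2, which was not called, in the 6 libraries. The vertical axes are CPM from 0, points are rats, and bars with whiskers are the mean ± SD (n = 3). All IDPN-4wk rats lie below all control rats in every panel except that of Ly6e, where all lie above, and Kcnma1 is at 7.26% of its control mean.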

How the data were processed

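RNA-seq libraries of 6 rats were analysed. From 6 to 11 ng of total RNA was reverse transcribed with an oligo-dT primer (SMART-seq2), with 8 PCR cycles for cDNA and 12 for libraries. The authors mapped paired-end reads to Rnor6.0 with STAR 2.5.3a and estimated counts per gene with RSEM (version 1.3.0 in the submitters' processing notes). The deposited expected counts were whole numbers, so rounding changed 0 values. Strand was not kept, and reads of similar or overlapping genes are less certain. Reads had no molecular identifiers, so intervals on counts cover counting error only.

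The treatment in the labels gave the groups, and the labels give all libraries the same batch. Each title holds a code whose meaning the labels do not state. Its number is the same in all exposed rats and differs from those of the controls, so what it marks and the treatment cannot be told apart. Replicate numbers follow the order of deposit and pair no rats. P-values measure the spread between these rats. Low counts were removed by filterByExpr of edgeR 4.0.16 (R 4.3.3; minimum count 10, total 15). TMM scaling, a two-sided quasi-likelihood test and Benjamini-Hochberg adjustment over all 14352 genes followed. SE came from the quasi F statistic, and log2 CPM used a prior count of 2. The code was checked on simulated counts. Alternatives were DESeq2 1.42.0, 2 other scalings, 2 other filters, 2 other uses of the fold change, leaving out each library and, added after seeing the data, a block on the final letters of the title codes.

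Members and lists were chosen with earlier results of these data known. The text names all 7 members, and each called gene of a pathway list, otherwise its 2 tested genes of highest level. It also names the 3 genes with an ordinary symbol most correlated with Chrna9, Chrna10 and Ache. The remaining genes, such as Kcnn2, Rapsn and the markers, were picked with their values in view. RefSeq windows and overlaps are of GRCr8.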

Additional observations from a re-analysis of the deposited data

How the results depend on the processing

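Among the members, 0 were called with DESeq2, upper quartile scaling, library size alone, no filter, a mean count of at least 50, glmTreat and an adjusted p alone, and from 0 to 0 when 1 library was left out. The signs of Chrna9 and Chrna10 were not stable. With library size alone, which moved the median of all genes from 0.02 to 0.13, their log2-Fold changes were 0.0152 and 0.0696. Leaving out 1 library gave -0.31 to 0.04998 for Chrna9 and -0.26 to 0.0620 for Chrna10. They turned positive without replicate 2 of the controls (0.0223 and 0.0503), without replicate 2 of IDPN-4wk (0.04998 and 0.0620) and, for Chrna10, without replicate 1 of IDPN-4wk (0.0489). Chrna1, Chrnb1 and Ache kept their signs in these fits, at -0.88 to -0.24 for Chrna1, -0.53 to -0.29 for Chrnb1 and 0.18 to 0.61 for Ache.

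Downregulated and upregulated genes numbered 950 and 444, and 780 and 762 with library size alone, 354 and 99 with glmTreat (a test of the change against 1.5-fold), and 1646 and 1132 with an adjusted p alone. With glmTreat, 7 in place of 11 pathway genes and 6 in place of 10 HC markers were called, and Ric3, Ly6e, Gnao1 and Penk were lost. With a mean count of at least 50, pathway calls numbered 9, since Ryr2 and Kcnq5 were no longer tested. Against Myo7a, the differences in the log2 ratios of Chrna9 and Chrna10 were 0.53 and 0.58 in place of 0.95 and 1.00. Leaving out 1 library gave 0.89 to 1.04 and 0.97 to 1.04 for these ratios, -0.000902 to 0.107 for Chrna10 to Chrna9, 768 to 1095 downregulated and 317 to 486 upregulated genes, 11 to 13 pathway genes and 8 to 12 HC markers. The title codes end in letters that each occur in 1 control and 1 exposed rat. Deviations from the group means over 14352 genes correlated at -0.0198, 0.0270 and 0.0580 between rats that share letters and at -0.0623 to 0.0310 between the others, so the letters were not taken to pair the rats. With them as a replicate block, chosen after seeing the data, 0 members, 919 downregulated and 433 upregulated genes, 11 pathway genes and 10 HC markers were called, with -0.11 for Chrna9 and -0.0578 for Chrna10. Depth limits Chrna1, Chrm2 and Chrm3 most, at 25 counts or fewer in each library.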
